A study of Mus musculus with 76 samples.

Results

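The metabotropic glutamate receptor genes Grm2, Grm3, Grm4, Grm5, Grm7 and Grm8 were followed across 76 RNA-sequencing libraries of the dorsal forebrain, the region from which the cortex forms. The tissue came from C57BL/6J embryos of the mouse on embryonic day 16. The genes were chosen by name from this receptor family, and all 6 were among the 14823 genes of the count table. The groups differ in which parent had received α-cypermethrin, a pyrethroid insecticide that acts on voltage-gated sodium channels. In Paternal_0.3Cyp (n = 12) and Paternal_10Cyp (n = 10) it was the father, in Maternal_0.3Cyp (n = 12) and Maternal_10Cyp (n = 8) the mother, and in Both_0.3Cyp (n = 12) and Both_10Cyp (n = 10) both parents at the same dose. In Ctrl (n = 12) both parents received vehicle, as did the unexposed partner in the groups with 1 exposed parent. The doses are labelled 0.3 and 10 without a unit. Treatment lasted 28 days and ended before the pairs were mated. It was not continuous: a first run of 7 days was followed by 3 cycles of 2 days off and 5 days on. Neither litter nor dam is labelled, so each embryo stood as its own replicate. The p-values therefore rest on the spread between libraries, and resemblance among littermates would make them smaller than they should be.

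Metabotropic glutamate receptors are G protein-coupled receptors that dimerise and bind glutamate in a large extracellular domain. Group I receptors, among them Grm5, couple to Gq proteins, phospholipase C and calcium release and sit mainly behind the synapse, where Homer and Shank proteins tether them. Group II receptors (Grm2, Grm3) and group III receptors (Grm4, Grm7, Grm8) couple to Gi and Go proteins, lower cyclic AMP and mostly restrain transmitter release, and Grm3 and Grm5 are also expressed by astrocytes. In the embryonic cortex Grm5 is found in progenitor cells as well as in young neurons.

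Total counts per library ran from 17735597 to 41419156, with a median of 19150870. The totals were not balanced over the groups. Every Both_10Cyp library had a higher total than every Ctrl library. So did Paternal_10Cyp 7, 8, 9 and 10, Maternal_0.3Cyp 4 and 12 and Maternal_10Cyp 2, and no other library did. The part of this difference in the comparisons with Ctrl was not tested. Marker lists for upper-layer and deep-layer cortical neurons summed to between 1634 and 2660 and between 1193 and 2087 normalised CPM (counts scaled to a common library total) in the 76 libraries, so that markers of the labelled tissue were present in all of them. Several libraries stood apart. Paternal_0.3Cyp 3 and 4 and Both_10Cyp 7 and 8 were high in embryonic globin, and Ctrl 3, Paternal_0.3Cyp 6 and 9 and Paternal_10Cyp 1 were high in markers of the diencephalon, the region next to the dorsal forebrain. The labels also name batches 1 (34 libraries) and 2 (42 libraries), in which every group is present.

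The genes lie apart in the genome. On mm10 with GENCODE M21 genes, Grm5 (ENSMUSG00000049583) is at chr7:87584168-88134907, Grm2 (ENSMUSG00000023192) at chr9:106643095-106656082, Grm3 (ENSMUSG00000003974) at chr5:9485541-9725170 and Grm4 (ENSMUSG00000063239) at chr17:27422387-27521403. Grm7 (ENSMUSG00000056755) and Grm8 (ENSMUSG00000024211) are both on chromosome 6, at chr6:110645581-111567230 and chr6:27275119-28135178. Some exon bases are shared with other annotated genes, 9.60% of those of Grm2 (Gm28111, opposite strand), 2.21% of Grm7 (Gm20387, opposite strand) and 0.970% of Grm8 (Mir592, same strand). None of those 3 genes is in the count table, and whether reads were assigned by strand is not given in the sources used here, so a part of these counts could belong to the overlapping gene.

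As a description, the start regions of Grm2, Grm3, Grm7 and Grm8 are printed. Shown are the 250 bases before the RefSeq start (GRCm38.p6), 5′ to 3′ on the gene's strand. Each GC box (GGGCGG, the core recognised by Sp1-type factors) is in capitals. Any part of these sequences in the levels of the genes was not tested. The 4 regions are chr9:106656110-106656359 on the minus strand, chr5:9725353-9725602 on the minus strand, chr6:110645348-110645597 on the plus strand and chr6:28135147-28135396 on the minus strand.
Grm2: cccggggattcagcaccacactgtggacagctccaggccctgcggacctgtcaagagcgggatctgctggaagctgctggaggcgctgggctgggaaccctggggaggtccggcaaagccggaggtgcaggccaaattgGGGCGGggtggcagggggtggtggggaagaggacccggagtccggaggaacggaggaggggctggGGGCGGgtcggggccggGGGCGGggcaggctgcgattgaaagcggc
Grm3: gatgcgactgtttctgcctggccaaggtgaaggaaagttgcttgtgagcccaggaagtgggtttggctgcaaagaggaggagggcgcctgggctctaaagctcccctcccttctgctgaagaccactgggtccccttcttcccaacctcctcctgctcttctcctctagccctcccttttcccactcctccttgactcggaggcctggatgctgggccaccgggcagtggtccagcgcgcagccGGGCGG
Grm7: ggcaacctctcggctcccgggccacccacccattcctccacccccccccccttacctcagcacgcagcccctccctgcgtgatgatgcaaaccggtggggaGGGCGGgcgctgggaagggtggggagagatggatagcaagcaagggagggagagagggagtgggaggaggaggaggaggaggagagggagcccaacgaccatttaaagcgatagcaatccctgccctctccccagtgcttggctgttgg
Grm8: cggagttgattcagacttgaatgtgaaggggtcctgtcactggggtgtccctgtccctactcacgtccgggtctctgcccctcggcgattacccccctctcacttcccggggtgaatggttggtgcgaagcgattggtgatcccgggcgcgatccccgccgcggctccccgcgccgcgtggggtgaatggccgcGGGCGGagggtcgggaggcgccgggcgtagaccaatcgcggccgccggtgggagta
Both strands of each window were searched for every motif, and the CCAAT match before Grm2, on the opposite strand, overlaps the first of its GC boxes. GC content was 71.2% for Grm2, 62.4% for Grm3, 65.2% for Grm7 and 68.4% for Grm8, against a median of 52.4% over 32851 such windows. The GC box was found 3 times before Grm2 and 1 time before each of the others, and 32.7% of all windows hold at least 1. That share is not matched for GC content. The table has 2 start windows for Grm7 and 3 for Grm8, and only the 1 shown for each was searched. The E-box CANNTG was in none of the 4 windows (66.2% of all windows hold it), nor was the TATA box TATAAA (12.4%) or the cAMP response element TGACGTCA (1.55%). CCAAT was found 1 time before Grm2 and 2 times before Grm8, and 33.8% of all windows hold it. Grm4 and Grm5 are not in the promoter table.

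Per kilobase of exon, Grm5 was the most abundant of the 6 genes at 9.41 ± 2.97 CPM per kb (mean ± SD over 76 libraries). It was followed by Grm3 at 4.89 ± 1.98, Grm2 at 4.46 ± 1.33, Grm4 at 2.84 ± 0.651, Grm7 at 1.94 ± 0.71 and Grm8 at 0.361 ± 0.14 CPM per kb. Grm5 was above Grm3 in 76 of 76 libraries and Grm7 above Grm8 in 76 of 76, while Grm3 and Grm2, the group II pair, changed places: Grm3 was higher in 51 of 76. Grm2 exceeded Grm4 in 72 libraries and Grm4 exceeded Grm7 in 74. The precision differs accordingly, with 630 to 4182 counts per library for Grm5 and 22 to 218 for Grm8.

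**Figure D1:**
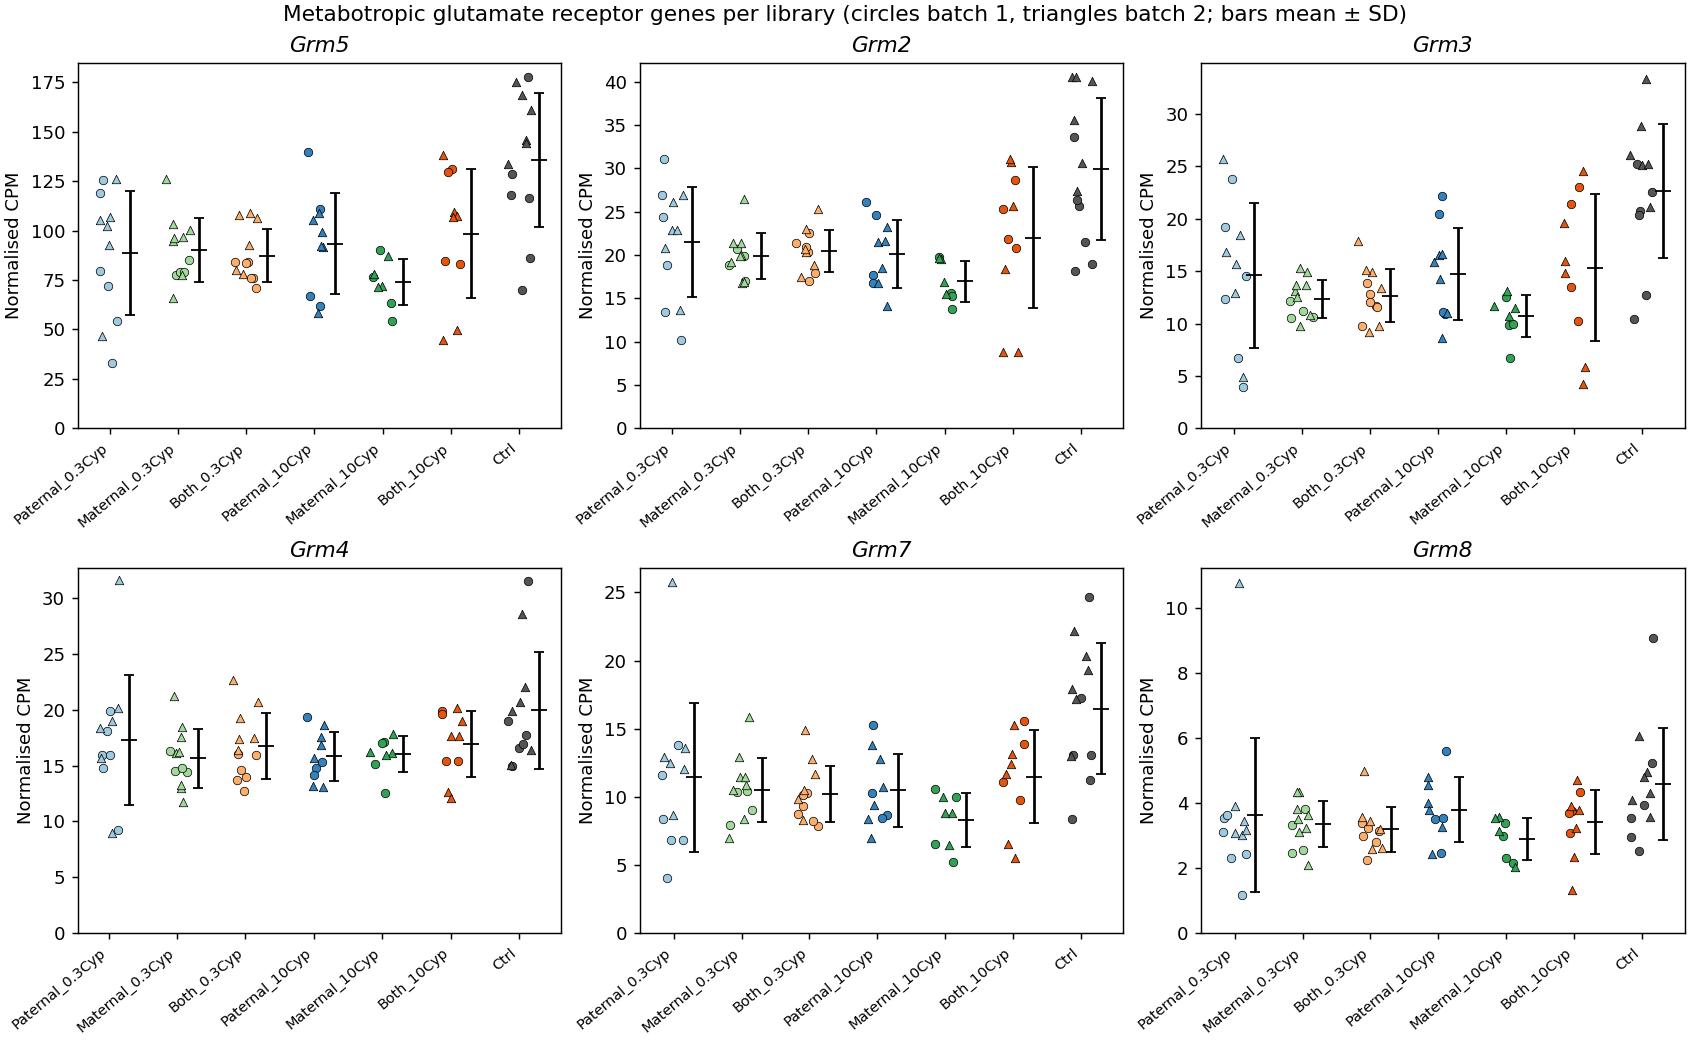
Normalised CPM of the 6 genes in every library (1 point each, circles batch 1, triangles batch 2) with the mean and SD of each group; each panel has its own vertical axis from 0. The exposed groups sit below Ctrl on average in every panel, the ranges overlap, and Grm4 has the smallest log2 fold change in each group but Paternal_10Cyp, where Grm8 has it.

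The comparisons with Ctrl ask whether the receptor genes of the embryo differed after a parent's exposure. All 6 genes had lower mean levels in all 6 exposed groups than in Ctrl, and Grm3, Grm7, Grm5 and Grm2 fell most clearly. In Maternal_10Cyp, the group with the largest difference for each gene but Grm4, Grm3 stood at 47.9% of its Ctrl level, Grm7 at 50.8%, Grm5 at 55.1% and Grm2 at 57.4% (fitted with batch and sex). With edgeR's quasi-likelihood test and Benjamini-Hochberg adjustment over the 14339 genes tested, 6 of 6 members were called lower at an adjusted p under 0.05 in Maternal_10Cyp, where 40.8% of all genes were called and 20.4% were called lower. Called lower were 4 members in Paternal_0.3Cyp (27.6% of all genes called, 12.2% lower), 5 in Maternal_0.3Cyp (23.7%, 12.8% lower), 5 in Both_0.3Cyp (22.3%, 11.8% lower) and 5 in Paternal_10Cyp (21.5%, 10.8% lower). In Both_10Cyp 0 members were called (3.91% of all genes called, 1.58% lower), although 5 of 6 had an unadjusted p under 0.05 (27.5% of all genes). At that unadjusted threshold it was 4 members in Paternal_0.3Cyp (40.2% of all genes), 6 in Maternal_0.3Cyp (38.2%), 6 in Both_0.3Cyp (37.1%), 5 in Paternal_10Cyp (37%) and 6 in Maternal_10Cyp (49.4%). The 6 comparisons share the 12 Ctrl libraries, so their signs are not independent of each other.

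Over the 6 members the median log2 fold change was -0.50 in Paternal_0.3Cyp, -0.59 in Maternal_0.3Cyp, -0.58 in Both_0.3Cyp, -0.54 in Paternal_10Cyp, -0.83 in Maternal_10Cyp and -0.45 in Both_10Cyp. Over all genes tested the medians lay between -0.01 and 0.01. All 36 values of the members were below 0, from -1.06 to -0.21, and in all 36 cases the exposed libraries overlapped the range of Ctrl. A joint test of the 6 exposed groups called Grm7 (adjusted p = 0.00309), Grm3 (0.00402), Grm5 (0.00424) and Grm2 (0.00474), 4 of the 6 members against 21.7% of all genes. Grm8 (0.121) and Grm4 (0.149) were not called. In bulk tissue, fewer cells that express a gene and less RNA of it per cell cannot be told apart.

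**Figure D2:**
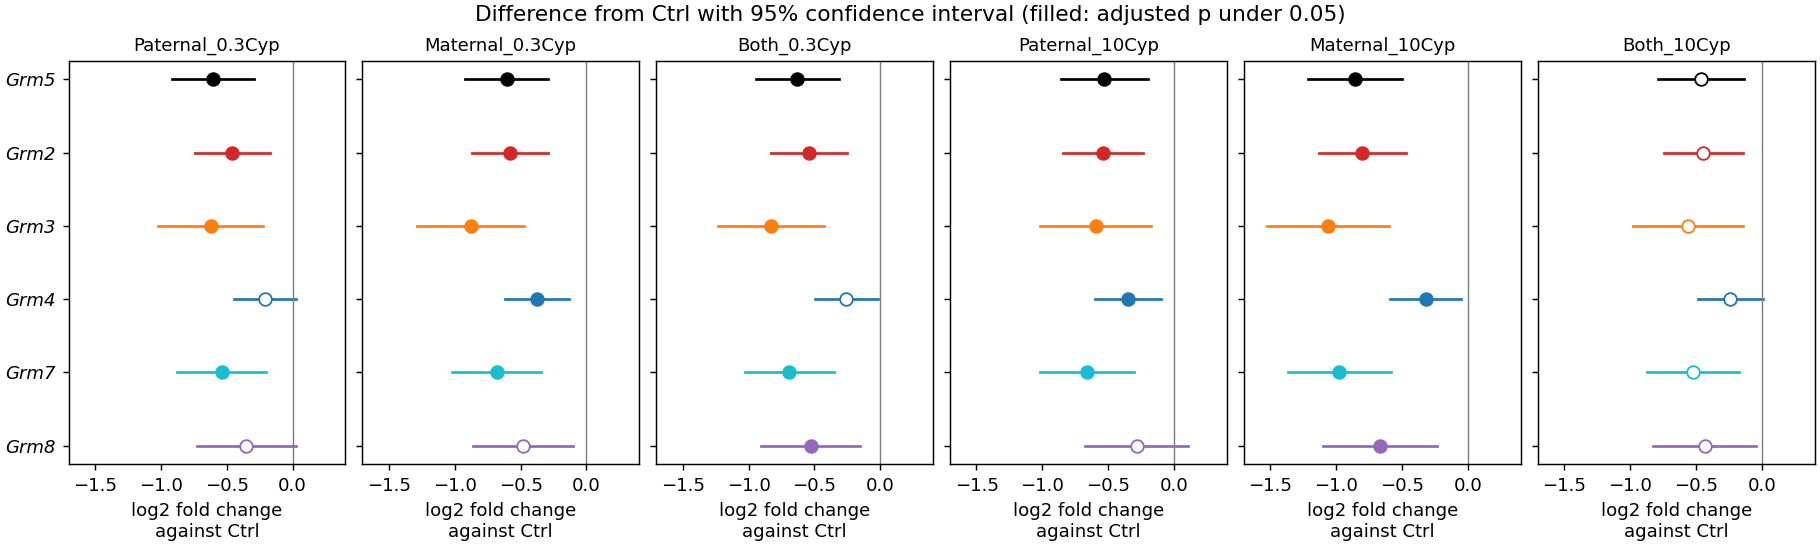
log2 fold change of each gene (rows) in each exposed group (panels) relative to Ctrl, with its 95% confidence interval; filled points have an adjusted p under 0.05. All points lie left of 0, with Grm3 and Grm7 farthest left in Maternal_10Cyp (-1.06 and -0.98) and no filled point in Both_10Cyp.

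Grm5 encodes the group I receptor mGluR5, which signals through Gq and phospholipase C. The lowest, median and highest Grm5 levels were 33.3, 97.4 and 126 normalised CPM in Paternal_0.3Cyp, 65.7, 90.0 and 126 in Maternal_0.3Cyp and 70.8, 83.6 and 109 in Both_0.3Cyp. At dose 10 they were 58.4, 95.6 and 139.6 in Paternal_10Cyp, 54.5, 74.2 and 90.2 in Maternal_10Cyp and 44.6, 107 and 138 in Both_10Cyp. In Ctrl they were 70.1, 139 and 177. The highest value of Ctrl lay above every exposed library, but Ctrl 5 and 6 were as low as many exposed libraries, and the lowest levels of all were in Paternal_0.3Cyp 3, 4 and 8 and Both_10Cyp 7 and 8. Grm5 was below the Ctrl mean in 62 of 64 exposed libraries. It fell in 5 groups, with log2 fold changes of -0.60 ± 0.16 in Paternal_0.3Cyp, -0.61 ± 0.16 in Maternal_0.3Cyp, -0.63 ± 0.16 in Both_0.3Cyp, -0.53 ± 0.17 in Paternal_10Cyp and -0.86 ± 0.18 in Maternal_10Cyp (SE), with edgeR adjusted p of 0.00532, 0.0068, 0.00716, 0.0201 and 0.000276 in that order. In Both_10Cyp the value was -0.46 ± 0.16, with a 95% interval of -0.79 to -0.13 (adjusted p = 0.0737). The call in Paternal_10Cyp was lost without Paternal_10Cyp 2 (-0.47) or 6 (-0.46). With the 4 high-globin libraries left out the Paternal_0.3Cyp value was -0.48 (adjusted p = 0.0163) and the Both_10Cyp value -0.28 (0.485).

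Grm3 encodes mGluR3, a Gi-coupled group II receptor of neurons and astrocytes. The lowest, median and highest Grm3 levels were 3.96, 15.1 and 25.7 normalised CPM in Paternal_0.3Cyp, 9.73, 12.3 and 15.3 in Maternal_0.3Cyp and 9.18, 12.5 and 17.8 in Both_0.3Cyp. At dose 10 they were 8.66, 15.1 and 22.1 in Paternal_10Cyp, 6.69, 11.1 and 13.1 in Maternal_10Cyp and 4.27, 15.4 and 24.5 in Both_10Cyp. In Ctrl they were 10.5, 23.9 and 33.4. Maternal_0.3Cyp and Both_0.3Cyp were narrow and lay beneath most Ctrl libraries, whereas Paternal_0.3Cyp and Both_10Cyp ran from far below Ctrl to just above its median. Grm3 fell in 5 groups, with log2 fold changes of -0.62 ± 0.20 in Paternal_0.3Cyp, -0.88 ± 0.20 in Maternal_0.3Cyp, -0.83 ± 0.20 in Both_0.3Cyp, -0.60 ± 0.21 in Paternal_10Cyp and -1.06 ± 0.23 in Maternal_10Cyp (SE), the largest fold changes of the 6 genes in 4 of these 5 groups and in Both_10Cyp; in Paternal_10Cyp Grm7 had the larger one. Adjusted p was 0.0178, 0.00456, 0.00668, 0.0368 and 0.000418 in that order, and in Both_10Cyp the value was -0.56 ± 0.21 with a 95% interval of -0.98 to -0.14 (adjusted p = 0.0842). The call in Paternal_0.3Cyp was lost without Paternal_0.3Cyp 8 (-0.53, adjusted p = 0.0527). The call in Paternal_10Cyp was lost without any 1 of Ctrl 3, 7, 8, 9 or 12 or Paternal_10Cyp 1, 2, 5, 6 or 8, with values of -0.58 to -0.53.

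Grm2 encodes mGluR2, the other group II receptor, which acts as an autoreceptor on glutamatergic terminals. The lowest, median and highest Grm2 levels were 10.3, 22.9 and 31 normalised CPM in Paternal_0.3Cyp, 16.8, 19.9 and 26.5 in Maternal_0.3Cyp and 17, 20.5 and 25.4 in Both_0.3Cyp. At dose 10 they were 14.1, 20.0 and 26.1 in Paternal_10Cyp, 13.7, 16.2 and 19.8 in Maternal_10Cyp and 8.83, 23.6 and 31.1 in Both_10Cyp. In Ctrl they were 18.2, 29.0 and 40.6. Only a part of the Ctrl libraries lay above the exposed groups, and Ctrl 5 and 6 were again low, while Both_10Cyp 7 and 8 had the lowest levels measured. Grm2 fell in 5 groups, with log2 fold changes of -0.46 ± 0.14 in Paternal_0.3Cyp, -0.58 ± 0.14 in Maternal_0.3Cyp, -0.54 ± 0.14 in Both_0.3Cyp, -0.54 ± 0.15 in Paternal_10Cyp and -0.80 ± 0.17 in Maternal_10Cyp (SE), with adjusted p of 0.0157, 0.00565, 0.00977, 0.0115 and 0.000242 in that order. In Both_10Cyp it differed by -0.44 ± 0.15 (95% interval -0.74 to -0.15, adjusted p = 0.0646). Its calls in the 5 groups held with any 1 library left out. Without Both_10Cyp 7 and 8 and the 2 other libraries high in embryonic globin, the Both_10Cyp value was -0.25 (adjusted p = 0.485).

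Grm7 encodes mGluR7, a group III receptor of low glutamate affinity that sits in the active zone of presynaptic terminals. The lowest, median and highest Grm7 levels were 4.07, 11.8 and 25.7 normalised CPM in Paternal_0.3Cyp, 6.97, 10.5 and 15.9 in Maternal_0.3Cyp and 7.83, 9.97 and 14.9 in Both_0.3Cyp. At dose 10 they were 6.95, 9.81 and 15.3 in Paternal_10Cyp, 5.25, 8.83 and 10.6 in Maternal_10Cyp and 5.50, 12 and 15.6 in Both_10Cyp. In Ctrl they were 8.38, 17.2 and 24.6. A single library, Paternal_0.3Cyp 9, exceeded the highest Ctrl library, and the other 63 exposed libraries, of all 6 groups, lay below the Ctrl median. Grm7 was below the Ctrl mean in 63 of 64 exposed libraries, that library being the exception. It fell in 5 groups, with log2 fold changes of -0.54 ± 0.17 in Paternal_0.3Cyp, -0.68 ± 0.17 in Maternal_0.3Cyp, -0.69 ± 0.17 in Both_0.3Cyp, -0.66 ± 0.18 in Paternal_10Cyp and -0.98 ± 0.20 in Maternal_10Cyp (SE), with adjusted p of 0.0149, 0.00567, 0.00686, 0.00931 and 0.000193 in that order. In Both_10Cyp it differed by -0.52 ± 0.18 (95% interval -0.87 to -0.17, adjusted p = 0.0643). With the high-globin libraries left out the Paternal_0.3Cyp value was -0.41 (adjusted p = 0.0534).

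Grm4 encodes mGluR4, a presynaptic group III receptor that is abundant in the adult cerebellum. The lowest, median and highest Grm4 levels were 8.95, 17 and 31.6 normalised CPM in Paternal_0.3Cyp, 11.8, 15.5 and 21.3 in Maternal_0.3Cyp and 12.7, 16.2 and 22.7 in Both_0.3Cyp. At dose 10 they were 13.1, 15.5 and 19.3 in Paternal_10Cyp, 12.6, 16.2 and 17.8 in Maternal_10Cyp and 12.1, 17.7 and 20.1 in Both_10Cyp. In Ctrl they were 14.9, 18.4 and 31.5. Here the groups overlapped widely, and the high end was set by Ctrl 3 and Paternal_0.3Cyp 9, both high in diencephalon markers, and by Ctrl 7. Grm4 fell in Maternal_0.3Cyp (-0.38 ± 0.12, adjusted p = 0.0199), Paternal_10Cyp (-0.35 ± 0.13, 0.038) and Maternal_10Cyp (-0.32 ± 0.13, 0.0488). It differed by -0.21 ± 0.12 in Paternal_0.3Cyp, -0.26 ± 0.12 in Both_0.3Cyp and -0.24 ± 0.12 in Both_10Cyp without being called. The call in Maternal_10Cyp was lost in 63 of the 76 fits that left out 1 library (-0.33 to -0.23). The call in Maternal_0.3Cyp was lost without Ctrl 3 (-0.29) or Ctrl 7 (-0.32), and that in Paternal_10Cyp without any 1 of Ctrl 3, 7, 8 or 9 or Paternal_10Cyp 1, 2, 5, 6, 8 or 10 (-0.35 to -0.25). Without Paternal_0.3Cyp 9 the Paternal_0.3Cyp value was -0.32 (adjusted p = 0.0223).

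Grm8 encodes mGluR8, a presynaptic group III receptor and the least abundant member here. The lowest, median and highest Grm8 levels were 1.16, 3.12 and 10.7 normalised CPM in Paternal_0.3Cyp, 2.08, 3.40 and 4.34 in Maternal_0.3Cyp and 2.24, 3.18 and 4.99 in Both_0.3Cyp. At dose 10 they were 2.44, 3.65 and 5.60 in Paternal_10Cyp, 2.02, 3.06 and 3.58 in Maternal_10Cyp and 1.32, 3.71 and 4.70 in Both_10Cyp. In Ctrl they were 2.52, 4.19 and 9.05. Apart from 1 library, Paternal_0.3Cyp 9, which exceeded every Ctrl library, most exposed libraries lay below the Ctrl mean, and Ctrl 3 stood above the rest of its group. Grm8 fell in Both_0.3Cyp (-0.53 ± 0.19, adjusted p = 0.037) and Maternal_10Cyp (-0.67 ± 0.22, 0.0103). In the other groups it differed by -0.35 ± 0.19 in Paternal_0.3Cyp, -0.48 ± 0.19 in Maternal_0.3Cyp, -0.28 ± 0.20 in Paternal_10Cyp and -0.43 ± 0.20 in Both_10Cyp, none of them called. Without Paternal_0.3Cyp 9 the Paternal_0.3Cyp value was -0.62 (adjusted p = 0.00366). The Maternal_0.3Cyp value (0.0532) passed the threshold in 12 of 76 fits without 1 library. The Both_0.3Cyp call was lost without any 1 of Ctrl 2, 3 or 7 or Both_0.3Cyp 6, 7, 8 or 12 (-0.52 to -0.37).

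In Both_10Cyp and Paternal_10Cyp the number of members called depended on single libraries. For Both_10Cyp it was 1 to 4 without any 1 of Ctrl 2, 5 or 6, Paternal_0.3Cyp 4, 8 or 9, or Both_10Cyp 3, 4, 6 or 10, in place of 0, and 5.05% to 14.7% of all genes were called in those fits, in place of 3.91%. For Paternal_10Cyp it was 2 or 3 without any 1 of Ctrl 3, 7, 8 or 9 or Paternal_10Cyp 1, 2, 5, 6 or 8, in place of 5, and 11.9% to 18.9% of all genes were called in those fits, in place of 21.5%. The direction of all 36 values was the same in every one of these fits.

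For Grm2, Grm3 and Grm5 the differences were larger in batch 2 than in batch 1 in all 6 groups, and the Ctrl libraries themselves differed between the batches. Within batch 1, 35 of the 36 values were below 0 (median -0.43, from -0.94 to 0.005) and 0 members were called in any group, where between 0% and 0.133% of all genes were called. Within batch 2 all 36 were below 0 (median -0.71, from -1.16 to -0.01), and 4 members, Grm2, Grm3, Grm5 and Grm7, were called in each group except Paternal_0.3Cyp. There Grm2 and Grm5 were called, and between 10.9% and 33.2% of all genes were called in the 6 groups.

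Ctrl averaged 35.8 ± 5.70 CPM of Grm2 in batch 2 and 24.1 ± 5.76 in batch 1 (SD, n = 6 each), and 155 ± 16.0 CPM of Grm5 in batch 2 and 116 ± 37.2 in batch 1. For Grm2 the fold change in Both_10Cyp was -0.81 ± 0.20 in batch 2 and 0.00 ± 0.22 in batch 1, and in Paternal_10Cyp -0.86 ± 0.20 and -0.13 ± 0.22 in the same order. Grm4, Grm7 and Grm8 did not follow this order everywhere: in Paternal_0.3Cyp Grm7 differed by -0.36 ± 0.23 in batch 2 and by -0.77 ± 0.24 in batch 1, and in Paternal_0.3Cyp Grm8 differed by -0.01 ± 0.26 in batch 2 and by -0.76 ± 0.27 in batch 1. The difference between batches was tested as an interaction, and 0 of the 36 values of the members were called (at most 0.00697% of all genes in any group). The lowest p were those of Grm2 in Both_10Cyp (-0.81 ± 0.29, unadjusted p = 0.00731, edgeR adjusted p = 0.312) and in Paternal_10Cyp (-0.74 ± 0.30, unadjusted p = 0.0155, edgeR adjusted p = 0.464).

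**Figure D3:**
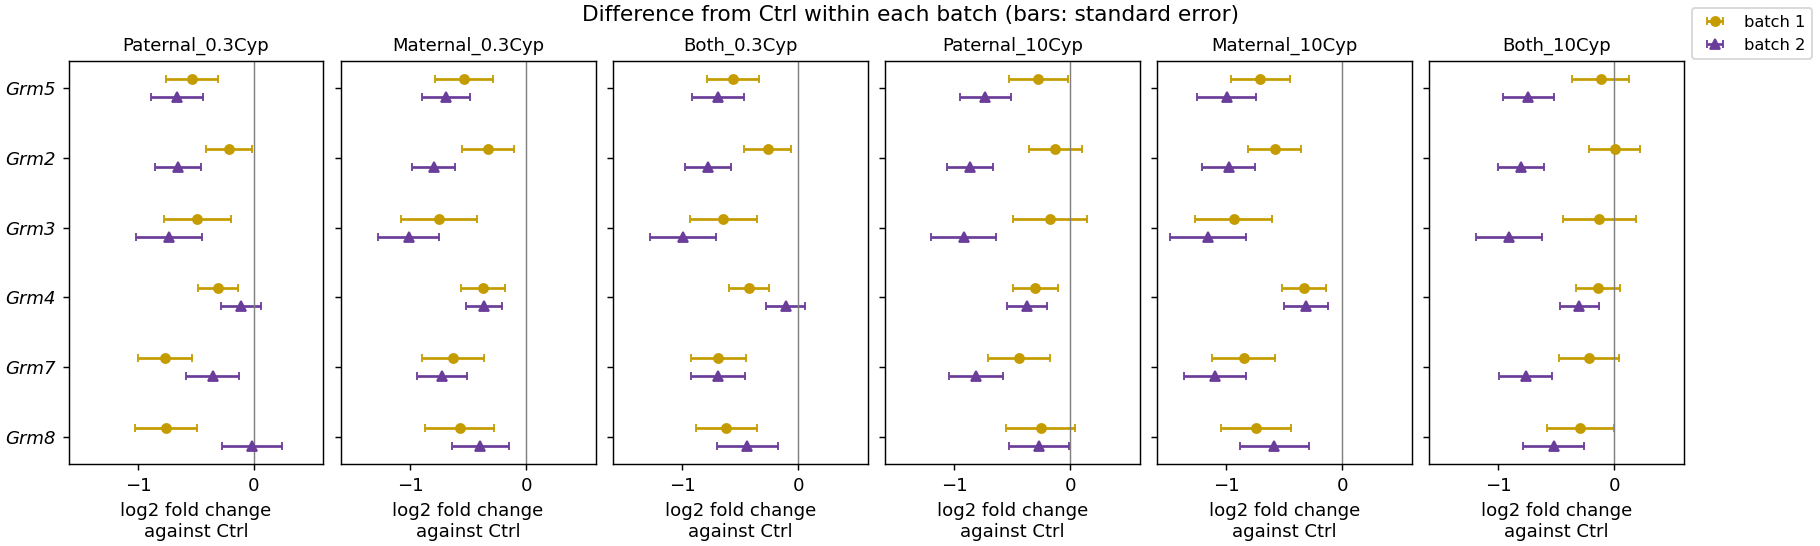
log2 fold change of each gene relative to Ctrl within batch 1 (circles) and batch 2 (triangles) with its standard error, for the 6 exposed groups (panels). The triangles lie left of the circles for Grm2, Grm3 and Grm5 in every panel, while Grm8 in Paternal_0.3Cyp shows the opposite order (-0.01 in batch 2 and -0.76 in batch 1).

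Levels in male and female embryos were compared over all groups. Male minus female log2 differences ran from -0.05 ± 0.07 (Grm4) to 0.13 ± 0.08 (Grm2), and 0 members were called (0.0907% of all genes called) with 0 at an unadjusted p under 0.05 (4.09% of all genes). The 95% interval for Grm2 was -0.03 to 0.30 and that for Grm8 -0.20 to 0.23. Of the 36 tests of sex by exposure 0 were called (at most 0.00697% of all genes in any group). The lowest p was that of Grm8 in Paternal_0.3Cyp, where males differed from Ctrl by 0.13 ± 0.24 and females by -0.97 ± 0.27 (difference 1.1 ± 0.36, unadjusted p = 0.00334, edgeR adjusted p = 0.184). Paternal_0.3Cyp 9, the library with the highest Grm8 level, is a male. Ctrl 3, with the highest Grm8 level in Ctrl, is a female, and both libraries are high in diencephalon markers.

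The dose and the exposed parent made no called difference to any member. For dose 10 against 0.3, the median log2 difference of the members was -0.03 with the father, -0.20 with the mother and 0.13 with both parents exposed, and 0 members were called in each (0.0628%, 0% and 0.00697% of all genes called). For Grm5 the differences were 0.07 ± 0.16, -0.25 ± 0.18 and 0.17 ± 0.16, with 95% intervals of -0.25 to 0.40, -0.61 to 0.10 and -0.16 to 0.50. None of these comparisons uses Ctrl. For mother against father, 0 members were called at dose 0.3 (0.00697% of all genes called) and 0 at dose 10 (0%). With the mother exposed the levels of 6 of 6 members were lower at dose 0.3 (56.5% of all genes) and of 5 of 6 at dose 10 (51.4%). At dose 10 the lowest p was that of Grm3 (-0.46 ± 0.24, 95% interval -0.94 to 0.01, unadjusted p = 0.0555, edgeR adjusted p = 0.819). These intervals leave room for differences of the size seen against Ctrl in some groups. In all of these 5 comparisons 0 members had an unadjusted p under 0.05, against 8.72%, 9% and 2.89% of all genes for dose with the father, the mother and both parents exposed, and 4.06% and 5.01% for mother against father at dose 0.3 and 10.

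For all 6 genes the difference from Ctrl with both parents exposed at dose 10 was smaller than the sum of the single-parent differences. The departure from the sum was called for 4 of them. This was tested as the difference of the Both group from the 2 single-parent groups (both minus mother minus father plus Ctrl on the log2 scale), where a positive value means a level above additivity. At dose 10 it was 1.11 ± 0.27 for Grm7 (adjusted p = 0.00337), 1.1 ± 0.32 for Grm3 (0.00996), 0.93 ± 0.25 for Grm5 (0.00614) and 0.90 ± 0.23 for Grm2 (0.00463). These 4 of 6 members were called, against 27.2% of all genes called and 14% of all genes called above 0. Grm8 (0.52 ± 0.30, 0.18) and Grm4 (0.43 ± 0.19, 0.0741) were not called.

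At dose 0.3 all 6 values were also above 0, between 0.31 (Grm8) and 0.67 (Grm3), and 0 members were called (0% of all genes called), with 4 at an unadjusted p under 0.05 (25.5% of all genes). Without Paternal_0.3Cyp 9, 1 member was called, and so were 8.14% of all genes. The term adds and subtracts 4 group means, among them Ctrl 1 time with a positive sign, so that it shares the Ctrl libraries with the comparisons above. Within each batch refitted alone, 0 members were called for it at dose 10, and their values were all above 0; 3.45% of all genes were called in batch 1 and 3.84% in batch 2. Without the 4 libraries high in embryonic globin 6 of 6 were called (39.5% of all genes). With the globin ratio as a covariate 2 were called (18% of all genes), and with 2 surrogate variables 0 were called (0.746% of all genes) and the value of Grm3 was -0.0571. In Maternal_10Cyp, Paternal_10Cyp and Both_10Cyp the mean Grm3 levels were 10.8 ± 2.00, 14.8 ± 4.40 and 15.3 ± 7.00 CPM, against 22.7 ± 6.35 in Ctrl (SD).

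Across libraries the levels of the 6 genes were positively correlated, as were those of many other genes. With the means of group, batch and sex removed from the log2 CPM (pseudocount 0.5), all 15 pairs were positively correlated over the 76 libraries. Grm3 and Grm5 were the most alike (r = 0.94 and rho = 0.86), and Grm2 and Grm4 the least (r = 0.57 and rho = 0.46). Each pair had a permutation p of 1e-05 for r (100000 permutations, 2-sided), the smallest that number can give, and an adjusted p of 1e-05 over the 15 pairs; for rho the adjusted p was at most 2e-05. Leaving out the 2 libraries farthest from the median gave r from 0.51 to 0.92. Within batch 1 the pairs had r from 0.59 to 0.95 and within batch 2 from 0.55 to 0.94. The points share library preparation and depth, and tissue makeup was not held constant.

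**Figure D4:**
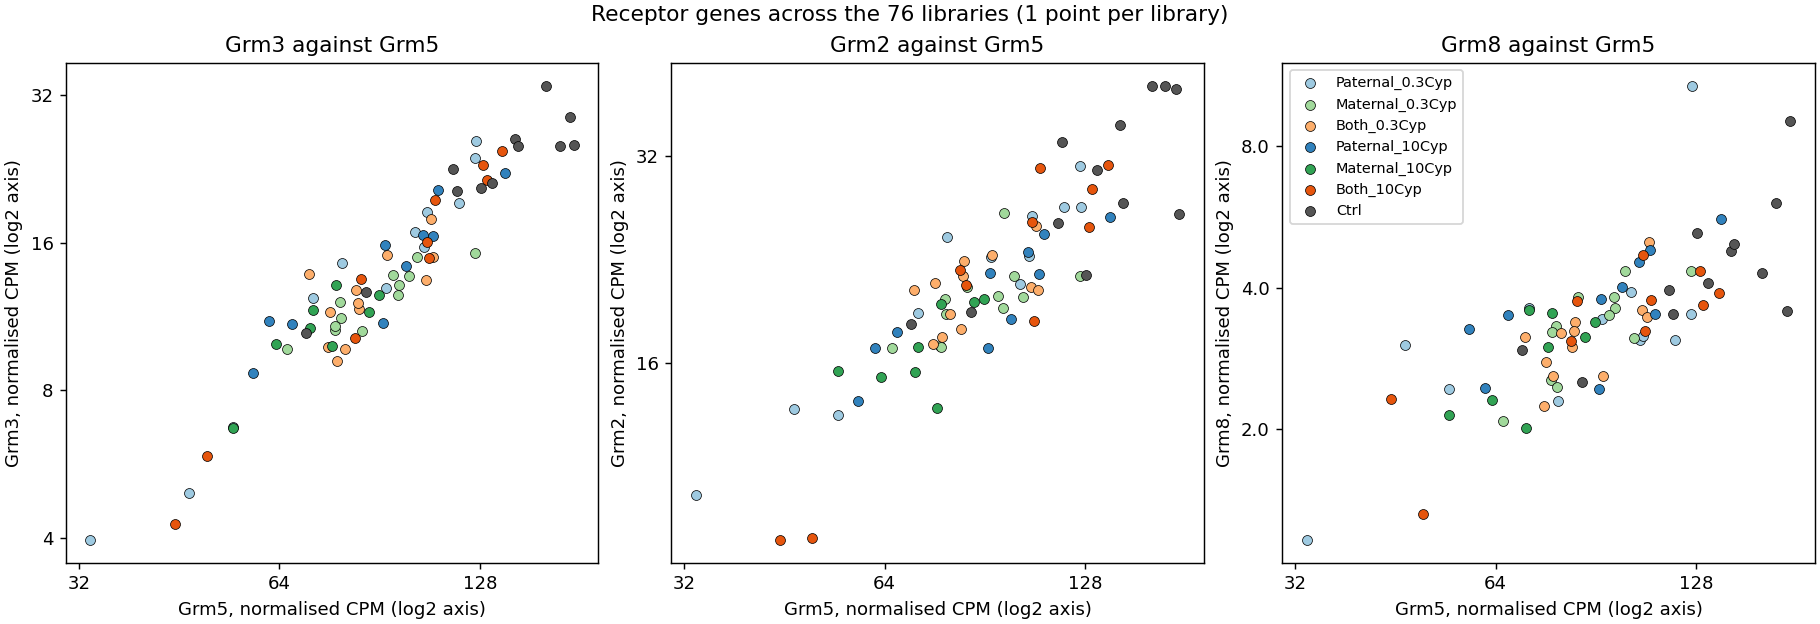
Normalised CPM of Grm3, Grm2 and Grm8 against Grm5 in the 76 libraries, both axes on a log2 scale, coloured by group. Grm3 follows Grm5 closely, Grm8 more loosely, and Paternal_0.3Cyp 9 and Ctrl 3 lie above the cloud in the Grm8 panel (10.7 and 9.05 CPM).

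The genes most like each member were found over 13173 genes with a mean of at least 1 CPM, by Pearson r of log2 CPM over 76 libraries with batch and sex means removed. They are given as a description. Grm5 was most like Lsamp (r = 0.97), a neuronal adhesion molecule, Scn2a (0.96), a voltage-gated sodium channel, and Plppr4 (0.96), a synaptic membrane protein. Grm3 was most like Scn2a (0.95), Grm5 (0.95) and Lsamp (0.95), and Grm2 most like Grm3 (0.92), Diras2 (0.91), a small GTPase, and Ablim1 (0.91), an actin-binding protein. Grm7 was most like Dpp6 (0.95), an auxiliary subunit of potassium channels, Shroom2 (0.95) and Doc2b (0.94), a calcium sensor of exocytosis. For Grm4 the leading genes were Iqsec3 (0.87), Ablim3 (0.87) and Nrxn2 (0.86), a presynaptic adhesion molecule, and for Grm8 they were Ache (0.85), acetylcholinesterase, Tspyl4 (0.85) and Shroom2 (0.85). The members were not always close to each other in this order: Grm8 ranked 1313 and Grm4 1447 among the genes most like Grm2, Grm4 ranked 1225 for Grm3, and Grm8 ranked 1047 for Grm5.

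Many genes that the receptors work with differed too, most of them by smaller fold changes. Of 28 genes for group I coupling and scaffolds, 16 were lower and 3 higher in Paternal_0.3Cyp, 14 and 4 in Maternal_0.3Cyp, 13 and 3 in Both_0.3Cyp, 10 and 2 in Paternal_10Cyp, 13 and 4 in Maternal_10Cyp, and 1 and 2 in Both_10Cyp. Of all genes tested, 15.4% were higher in Paternal_0.3Cyp, 10.9% in Maternal_0.3Cyp, 10.5% in Both_0.3Cyp, 10.7% in Paternal_10Cyp, 20.4% in Maternal_10Cyp and 2.34% in Both_10Cyp. Called lower were 12.2%, 12.8%, 11.8%, 10.8%, 20.4% and 1.58% of all genes in the same order of groups. The median log2 fold change of the list lay between -0.22 and -0.17. In the joint test 15 of the 28 were called, against 21.7% of all genes. Frmpd4, which links Homer to the receptor, had the lowest p (adjusted p = 0.000452): it averaged 3.76 CPM in Maternal_10Cyp and 8.41 in Ctrl, with a fold change of -1.14 ± 0.20 there and of -0.52 ± 0.17 in Both_10Cyp (adjusted p = 0.0642).

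Prkca, a protein kinase C downstream of Gq, fell in every group but Both_10Cyp (-0.55 to -0.28 over the 6 groups). Shank2, a postsynaptic scaffold, did the same (-0.50 to -0.22), and Ncdn, a neuronal protein that binds mGluR5, fell in all 6 (-0.40 to -0.24). The Homer scaffolds differed among themselves. Homer3 rose in all 6 groups, by 0.41 ± 0.09 in Maternal_10Cyp (adjusted p = 0.000308) and by 0.24 ± 0.08 in Paternal_10Cyp (0.0303), which had the smallest value. Homer1 fell in Paternal_0.3Cyp (-0.17 ± 0.06, 0.0213) and was not called elsewhere, and Homer2 (-0.13 to -0.02) was called in no group.

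Of 30 genes for group II and III coupling and partners, 15 were lower and 1 higher in Paternal_0.3Cyp, 12 and 3 in Maternal_0.3Cyp, 12 and 2 in Both_0.3Cyp, 6 and 3 in Paternal_10Cyp, 14 and 4 in Maternal_10Cyp, and 2 and 0 in Both_10Cyp, with list medians from -0.19 to -0.11. Of all genes, 12.2%, 12.8%, 11.8%, 10.8%, 20.4% and 1.58% were called lower in that order of groups. Called higher were 15.4%, 10.9%, 10.5%, 10.7%, 20.4% and 2.34%. The joint test called 13 of the 30, against 21.7% of all genes. Elfn1 and Elfn2, adhesion molecules that bind group III receptors across the synapse, were lower: Elfn2 fell in every group but Both_10Cyp (-0.51 to -0.25 over the 6 groups), and Elfn1 fell in Paternal_0.3Cyp, Maternal_0.3Cyp, Both_0.3Cyp and Maternal_10Cyp (-0.36 to -0.14 over the 6 groups). Gnao1, the alpha subunit of Go, fell in all 6 groups (-0.25 to -0.17).

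Of 20 genes for glutamate transport and supply, 5 were lower in Paternal_0.3Cyp, 7 in Maternal_0.3Cyp, 8 in Both_0.3Cyp, 6 in Paternal_10Cyp, 12 in Maternal_10Cyp and 2 in Both_10Cyp, and 0 were higher in any group, with list medians from -0.26 to -0.13. Of all genes, 12.2% were lower in Paternal_0.3Cyp, 12.8% in Maternal_0.3Cyp, 11.8% in Both_0.3Cyp, 10.8% in Paternal_10Cyp, 20.4% in Maternal_10Cyp and 1.58% in Both_10Cyp, and 27.6% were called in either direction in Paternal_0.3Cyp. The joint test called 6 of the 20, against 21.7% of all genes. Slc25a22, the mitochondrial glutamate carrier, fell in all 6 groups (-0.26 to -0.17). Slc1a4, a neutral amino acid transporter, and Slc1a1, the neuronal glutamate transporter EAAC1, fell in every group but Both_10Cyp (-0.39 to -0.19 and -0.39 to -0.22 over the 6 groups). Slc1a3, the glial glutamate transporter GLAST and also in the marker list for radial glia, fell in 4 groups (-0.28 to -0.15 over the 6 groups) but was not called in Paternal_10Cyp (0.0555) or Both_10Cyp (0.066).

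**Figure D5:**
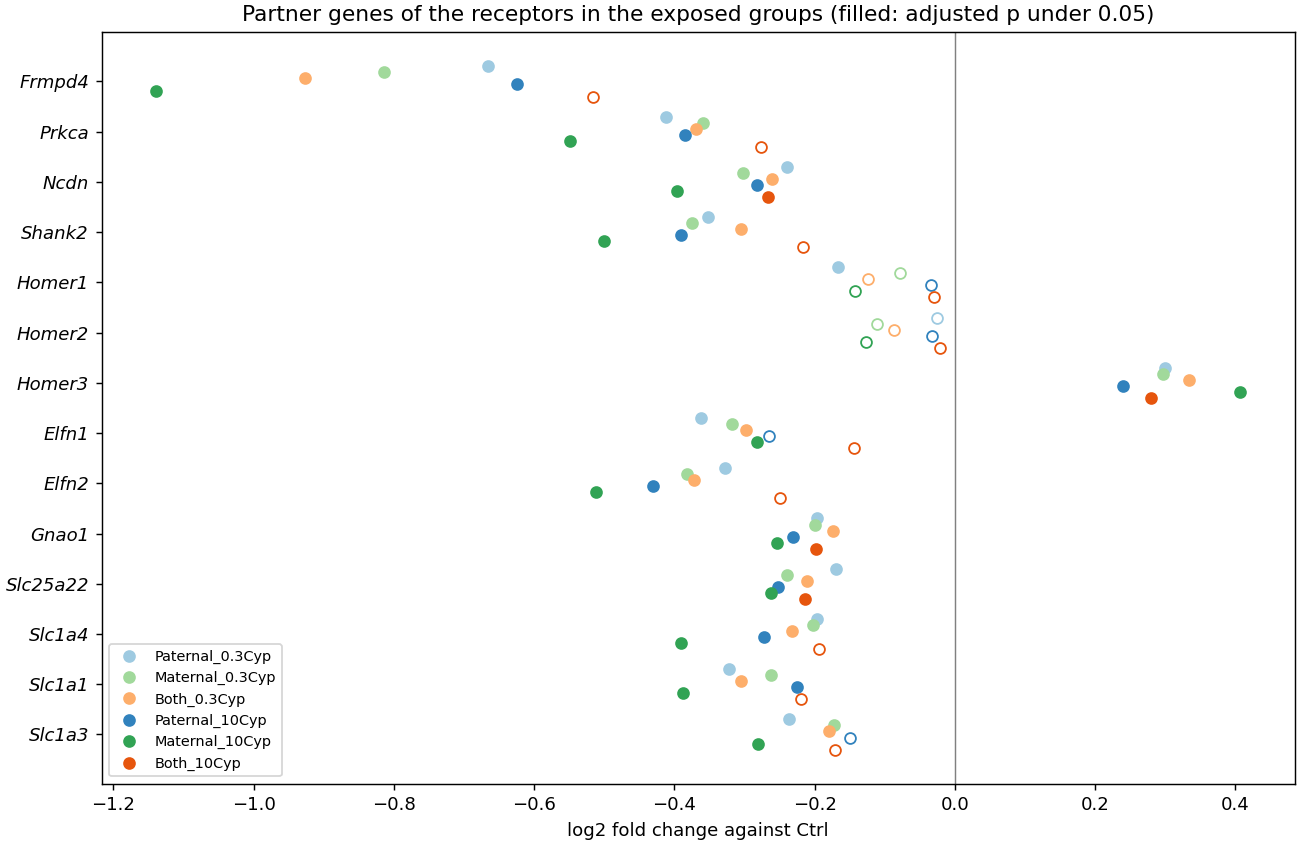
log2 fold change of 14 partner genes (rows) in the 6 exposed groups (colours) relative to Ctrl; filled points have an adjusted p under 0.05. Frmpd4 lies farthest left (-1.14 in Maternal_10Cyp), while Homer3 lies right of 0 in all 6 groups.

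Markers of several cell types were read in the same comparisons, and the lists differed in how many of their genes were called. Of 12 markers of intermediate progenitors, 9 were higher in Paternal_0.3Cyp, 9 in Maternal_0.3Cyp, 7 in Both_0.3Cyp, 5 in Paternal_10Cyp, 9 in Maternal_10Cyp and 3 in Both_10Cyp, and 0 were lower. Their summed level ran over 545 to 1468 CPM in Paternal_0.3Cyp, 771 to 943 in Maternal_0.3Cyp, 812 to 971 in Both_0.3Cyp, 637 to 1000.2 in Paternal_10Cyp, 870.4 to 1062 in Maternal_10Cyp and 660.2 to 1319 in Both_10Cyp, against 531 to 1008 in Ctrl. Of 10 markers of oligodendrocyte precursors 5, 7, 7, 4, 8 and 1 were lower in the same order of groups and 0 higher. Their sum ran over 64.2 to 262 CPM in Paternal_0.3Cyp, 126 to 176 in Maternal_0.3Cyp, 118 to 160.3 in Both_0.3Cyp, 116 to 204 in Paternal_10Cyp, 115 to 141 in Maternal_10Cyp and 92.1 to 201 in Both_10Cyp, against 117 to 279 in Ctrl. No marker of either list was at 0 in all libraries. Of 14 early astrocyte markers, a cell type that expresses Grm3 and Grm5, 5 were lower in Paternal_0.3Cyp, 5 in Maternal_0.3Cyp, 5 in Both_0.3Cyp, 3 in Paternal_10Cyp, 8 in Maternal_10Cyp and 0 in Both_10Cyp, and 1 was higher, in Paternal_0.3Cyp. Of 13 striatal markers 7, 7, 7, 4, 7 and 1 were lower in that order and 0 higher, and of 12 markers of deep-layer neurons 3, 3, 4, 3, 5 and 0 were lower and 0 higher. Of 12 markers of upper-layer neurons 3, 2, 2, 1, 2 and 0 were lower, and 1 was higher in each of Paternal_0.3Cyp and Maternal_10Cyp. Of 16 radial glia markers 7, 5, 5, 3, 7 and 1 were higher and 3, 2, 3, 2, 3 and 2 lower. Of the 9 erythroid markers tested 7, 2, 2, 3, 0 and 1 were higher and 0 lower. For comparison, 12.2%, 12.8%, 11.8%, 10.8%, 20.4% and 1.58% of all genes were called lower in that order of groups. Called higher were 15.4%, 10.9%, 10.5%, 10.7%, 20.4% and 2.34%. Further lists are given for Maternal_10Cyp, where 40.8% of all genes were called. There it was 5 of 18 interneuron and ventral forebrain markers, 3 of 9 for Cajal-Retzius cells and 4 of 12 for cortical hem and hippocampus. It was 3 of 11 for endothelial cells, and 0 for microglia and macrophages, choroid plexus, and meninges and fibroblasts. The part of these cell types in the levels of the receptor genes was not tested.

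Of the 12 diencephalon markers tested, 9 were higher in Paternal_0.3Cyp and 0 in each other group, with summed levels of 38.6 to 588 CPM in Paternal_0.3Cyp and 31.4 to 221 in Ctrl. Without the 4 libraries high in these markers, the members called were 5 in Paternal_0.3Cyp (26% of all genes called) and 2, Grm2 and Grm7, in Paternal_10Cyp (10.4% of all genes called), and all 36 values were below 0 (median -0.54). The log2 ratio of embryonic to adult globin counts, which is a property of the blood in the tissue, also moved with the groups. Its median was -11.0 in Paternal_0.3Cyp, -10.7 in Maternal_0.3Cyp, -10.9 in Both_0.3Cyp, -11.4 in Paternal_10Cyp, -10.3 in Maternal_10Cyp and -11.4 in Both_10Cyp, against -12.8 in Ctrl. The ratio rests on few embryonic globin counts, from 0 to 26 per library in Ctrl. In Ctrl 2 and Both_10Cyp 3 the count was 0, so that the pseudocount of 0.5 set the ratio (-16.1 and -16.7). With this ratio as a further term in the fit, all 36 values stayed below 0 but their median was -0.32, and 7 of 36 were called in place of 25. Of all genes, 0.307% were then called in Paternal_0.3Cyp, 1.19% in Maternal_0.3Cyp, 0.0697% in Both_0.3Cyp, 16% in Paternal_10Cyp, 28.1% in Maternal_10Cyp and 0.921% in Both_10Cyp. Those 7 were Grm2, Grm5 and Grm7 in Paternal_10Cyp and Grm2, Grm3, Grm5 and Grm7 in Maternal_10Cyp, where Grm7 differed by -0.62. With 2 surrogate variables estimated from the data as further terms, 24 of 36 values were below 0, their median was -0.04 and 0 were called (at most 0.593% of all genes in any group). The first of these variables ran from -0.18 to -0.0045 in Maternal_10Cyp and from -0.13 to 0.27 in Ctrl. It was not independent of the groups, and this fit can remove a part of the group difference itself.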

How the data were processed

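RNA from 76 embryonic dorsal forebrains was sequenced, 1 library per embryo. The authors deposited estimated counts per gene, given as whole numbers; the submitters' processing notes name Salmon 1.10.1, Trim Galore 0.5.0 and the mm10 build; the strand setting is not given in the sources used here. Symbols, positions and exon lengths were taken from GENCODE M21.

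Counts were fitted with edgeR 4.0.16 (quasi-likelihood, robust, TMM scaling, R 4.3.3) over all 76 libraries with group, batch and sex; filterByExpr kept 14339 of 14823 genes, and all 6 members passed. Genes with a Benjamini-Hochberg adjusted p under 0.05 over all genes tested were called, 2-sided. Scaled CPM describe levels. The scripts were tested on simulated data. The members, the partner and marker lists and the tests were chosen with earlier results of these data known. Named genes are the 6 members, up to 4 genes of lowest joint p per partner list together with known binding partners, and the 3 genes most like each member. A few genes of the partner lists that this rule names are not reported here. Alternatives were other normalisations, filters, tests (DESeq2 1.42.0, limma 3.58.1), covariates, batches and left-out libraries. Replicate numbers were not used to pair libraries.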

Additional observations from a re-analysis of the deposited data

Results flagged for a closer look

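At dose 10, the difference from Ctrl with both parents exposed was not the sum of the differences with the mother and the father exposed, by a test of that difference itself (both minus mother minus father plus Ctrl, log2 scale, edgeR with Benjamini-Hochberg adjustment). The value was 0.90 for Grm2 (adjusted p = 0.00463), 1.1 for Grm3 (adjusted p = 0.00996), 0.93 for Grm5 (adjusted p = 0.00614) and 1.11 for Grm7 (adjusted p = 0.00337), each above additivity. Over all genes tested, 27.2% were called in this comparison and 14% were called above 0. The calls depended on the processing: 0 members were called in batch 1 alone, 0 in batch 2 alone, 2 with the globin ratio as a covariate and 0 with 2 surrogate variables, where the value of Grm3 was -0.0571. Of all genes, 3.45%, 3.84%, 18% and 0.746% were called in these fits, in that order. In the 3 groups of 10 or fewer libraries, 0 of the 18 combinations of gene and group held a single library far from the others. That check looks for 1 extreme library, so it can miss 2 that are low together, as Both_10Cyp 7 and 8 were for Grm2 (8.83 and 8.87 CPM). The larger groups were not checked. Every Both_10Cyp library also had a higher total count than every Ctrl library, and the part of this in the values above was not tested.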

How the results depend on the processing

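All 36 differences from Ctrl were below 0 in each alternative except batch 1 alone (35) and 2 surrogate variables (24). Members called (Paternal_0.3Cyp 4, Maternal_0.3Cyp 5, Both_0.3Cyp 5, Paternal_10Cyp 5, Maternal_10Cyp 6, Both_10Cyp 0, joint test 4, non-additivity at dose 10 4) changed as follows. Batch 1 alone gave 0 in the first 5 groups (0% to 3.25% of all genes called), in the joint test and in non-additivity (3.45%). Batch 2 alone gave 2 in Paternal_0.3Cyp (9.12% of all genes), 4 in Both_10Cyp (14.9%) and 0 in non-additivity (3.84%). With the globin ratio as a covariate 0 were called in the 3 groups at dose 0.3 (0.0697% to 1.19% of all genes) and in the joint test. That fit gave 3 in Paternal_10Cyp (16%) and 2 in non-additivity (18%). With 2 surrogate variables 0 were called in the first 5 groups (at most 0.593% of all genes), the joint test and non-additivity (0.746%). The first of these variables was not independent of the groups, so that fit can remove a part of the group difference. Paternal_10Cyp gave 3 with no batch term and 2 without libraries high in diencephalon markers (10.4% of all genes). Paternal_0.3Cyp gave 0 with only the groups compared. Both_10Cyp gave 2 by DESeq2 and 4 by limma. For no batch term, only the groups compared, DESeq2 and limma the share of all genes called is not reported here. The cause was not tested.

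The sign turned with 2 surrogate variables in Paternal_0.3Cyp (Grm3 0.0016, Grm4 0.11, Grm8 0.12), Maternal_0.3Cyp (Grm5 0.0265, Grm8 0.11), Both_0.3Cyp (Grm4 0.0884, Grm8 0.0282), Paternal_10Cyp (Grm3 0.0443, Grm8 0.25), Maternal_10Cyp (Grm4 0.15, Grm8 0.11), Both_10Cyp (Grm4 0.0396) and non-additivity at dose 10 (Grm3 -0.0571, Grm4 -0.0826, Grm8 -0.37), and in batch 1 alone for Grm2 in Both_10Cyp (0.0109). Leaving out 1 library gave 3 to 6 members called in Paternal_0.3Cyp, 4 to 6 in Maternal_0.3Cyp, 4 to 5 in Both_0.3Cyp, 2 to 5 in Paternal_10Cyp, 5 to 6 in Maternal_10Cyp, 0 to 4 in Both_10Cyp, 4 to 5 in the joint test, 4 to 5 in non-additivity at dose 10 and 0 to 1 at dose 0.3. The share of all genes called moved as well. In Paternal_0.3Cyp it was 15.8% in the fit with 3 members called and 34.6% in that with 6. Exposed and Ctrl libraries of the same number had a median correlation of -0.013 over all 64 pairs, with 19 over 0.1. The groups differed: the median was 0.11 in Paternal_10Cyp (6 of 10 over 0.1) and 0.079 in Paternal_0.3Cyp (5 of 12), and below 0 in the others. With a replicate block the calls were 4, 6, 5, 4, 5 and 0 in the order above, and the share of all genes is not reported here. With the longest transcript as the length, levels were 3.69 (Grm4), 2.72 (Grm7) and 0.746 (Grm8) CPM per kb in the same order. Low counts limit Grm8.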
